A study of Mus musculus with 2 samples.

Results

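The 9 cytochrome P450 genes of the Cyp2a, Cyp2b and Cyp2c subfamilies studied here (*Cyp2a4*, *Cyp2a5*, *Cyp2a22*, *Cyp2b9*, *Cyp2b10*, *Cyp2b13*, *Cyp2c37*, *Cyp2c38* and *Cyp2c54*) and *Nr1i3*, which encodes the constitutive androstane receptor CAR, were followed in hepatocyte nuclei of the fatty mouse liver. They are 10 of the 32285 genes in the count tables. They were taken by symbol, and the choice was made with their levels in these libraries in view, so their levels and differences are a description and were not tested.

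The data are single-nucleus RNA-seq of liver from male C57BL6/J mice that ate a steatohepatitis (MASH) diet rich in fat, fructose and cholesterol for 5 months, starting at 10 to 12 weeks of age. One library, labelled Flox, came from Themis flox/flox mice, whose title also calls them WT. The other, labelled HKO, came from mice with Themis flox and Alb-Cre, a Cre driven by the albumin promoter and so active in hepatocytes. Livers of several mice were pooled per genotype before nuclei were isolated and sorted, and there is 1 library per genotype, so no value has a replicate, no difference could be tested, and animals within a pool cannot be told apart. All intervals are exact 95% intervals that cover counting error only.

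Flox held 9363 nuclei and the library labelled HKO 10748, with 58171337 and 40475938 UMIs (unique molecular identifiers, 1 per captured transcript), and 27 barcodes occurred in both. Hepatocyte nuclei with at least 3000 UMIs were used, 5648 in Flox (median 7531.5 UMIs) and 3955 in the library labelled HKO (median 6151 UMIs). All 10 hepatocyte markers were detected in both. Summed markers of the other liver cell types reached 0.0157% to 0.895% of their level in their own nuclei. *Themis*, the targeted gene, stood at 162 CPM (UMIs of a gene per 1000000 UMIs) in hepatocyte nuclei of Flox and at 251 CPM in the library labelled HKO, 1.55-fold higher (1.5 to 1.6). The count therefore does not show a loss, whether it covers the deleted part was not tested, and every direction below is between libraries as labelled. The male label held in both, with 4 Y-linked genes at 113 to 189 CPM and *Xist* at 1.16 and 2.19 CPM.

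CAR is a nuclear receptor of hepatocytes that pairs with the retinoid X receptor and switches on genes of drug and steroid metabolism, among which *Cyp2b10* is the usual reporter gene in mice. The Cyp2a, Cyp2b and Cyp2c enzymes hydroxylate steroids, drugs and fatty acids, and many of them are made mainly around the central vein, the pericentral or zone 3 end of the liver lobule. *Cyp2a4*, *Cyp2b9* and *Cyp2b13* are also known as female-predominant genes of the mouse liver, held low in males.

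The Cyp2a and Cyp2b genes lie in 1 cluster on chromosome 7, the Cyp2c genes on chromosome 19 and *Nr1i3* on chromosome 1 (GRCm38). Among them, 2 pairs are near copies in the stretch before the gene. The 250 bases upstream of the start are shown for both pairs because genes with almost the same upstream sequence are compared below. The starts are RefSeq's and differ from the GENCODE gene spans given further on, so the last bases of the *Cyp2a4* and *Cyp2a5* stretches lie inside those spans. *Cyp2a4* (chr7:26306942-26307191, plus strand) and *Cyp2a5* (chr7:26835089-26835338, plus strand) differed at 4 of 249 aligned bases (98.4% identity). Capitals mark those 4 positions, and the sequences are RefSeq promoters on GRCm38.p6.
Cyp2a4: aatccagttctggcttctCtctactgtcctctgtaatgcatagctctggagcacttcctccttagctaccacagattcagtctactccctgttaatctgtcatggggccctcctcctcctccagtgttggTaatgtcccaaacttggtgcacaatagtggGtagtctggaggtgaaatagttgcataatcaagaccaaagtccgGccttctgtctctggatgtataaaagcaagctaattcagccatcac
Cyp2a5: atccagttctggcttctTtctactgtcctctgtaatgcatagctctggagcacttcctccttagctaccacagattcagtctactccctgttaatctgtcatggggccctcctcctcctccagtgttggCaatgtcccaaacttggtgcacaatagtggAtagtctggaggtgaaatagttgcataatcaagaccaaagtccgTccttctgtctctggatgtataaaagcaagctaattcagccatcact

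*Cyp2b9* (chr7:26173159-26173408, plus strand) and *Cyp2b13* (chr7:26061245-26061494, plus strand) differed at 2 of 250 bases (99.2% identity), again in capitals.
Cyp2b9: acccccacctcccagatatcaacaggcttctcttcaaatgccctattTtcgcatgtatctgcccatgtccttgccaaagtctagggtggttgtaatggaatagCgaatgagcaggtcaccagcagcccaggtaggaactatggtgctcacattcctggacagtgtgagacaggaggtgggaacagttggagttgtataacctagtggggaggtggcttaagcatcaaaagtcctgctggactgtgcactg
Cyp2b13: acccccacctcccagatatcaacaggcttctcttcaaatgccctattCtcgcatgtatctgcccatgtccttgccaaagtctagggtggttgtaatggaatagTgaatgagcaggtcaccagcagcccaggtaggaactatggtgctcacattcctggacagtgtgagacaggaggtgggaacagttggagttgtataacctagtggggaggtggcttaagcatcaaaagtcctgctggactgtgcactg

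The other pairs were further apart over the same stretch, with 78.2% identity for *Cyp2b9* and *Cyp2b10*, 70.2% for *Cyp2c37* and *Cyp2c38* and 64.8% for *Cyp2a5* and *Cyp2a22*. In the 9 RefSeq promoters of 300 bases that were matched (250 before and 50 after the start), the nuclear receptor half-site AGGTCA was found on either strand in 4, those of *Cyp2a4*, *Cyp2a5*, *Cyp2b9* and *Cyp2b13*, against 16.3% of 32851 promoters of that length. The STAT motif TTCNNNGAA was in none of the 9, against 8.30% of all, which says only that these letters are not in the window. The promoter of *Cyp2c54* is not shown.

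Near copies also limit how reads are assigned. Of the 911 windows of 90 bases in the last 1000 bases of the longest transcript, *Cyp2a4* shared 25.1% and *Cyp2a5* 18.2% with each other or with *Cyp2a21-ps*, and *Cyp2b13* shared 16.1% with *Gm45225*. *Cyp2c37* and *Cyp2c54* each shared 5.38% with each other or *Cyp2c50*. *Cyp2b9*, *Cyp2c38* and *Nr1i3* shared none. UMIs in the shared stretches are uncertain for these genes. *Nr1i3* (chr1:171213970-171220701) overlaps *Tomm40l* on the other strand over 4691 bases, and whether counting used strand is not given in the sources used here.

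In hepatocyte nuclei, 5 of the 9 genes with at least 200 UMIs were at least 2-fold higher in the library labelled HKO than in Flox. The corresponding share over all 11190 genes was 2.36%. A single gene, *Cyp2c54*, was at least 2-fold lower, against 2.62% of all genes, and *Cyp2a5*, *Cyp2c37* and *Nr1i3* lay between. Since the genes were picked with these values known, nothing is read from the counts. The median log2 ratio over all genes was -0.02.

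*Cyp2a4* (chr7:26307169-26315088), a testosterone hydroxylase, was close to absent from Flox. Flox had 2 UMIs of it (0.0437 CPM, 0.00529 to 0.158), whereas 592 UMIs came from the library labelled HKO (22.4 CPM, 20.6 to 24.2), a ratio of 512 (141 to 4235). Its near copy *Cyp2a5* (chr7:26835305-26843548), the coumarin hydroxylase, had 5513 UMIs in Flox and 5233 in the library labelled HKO. That is 121 and 198 CPM, a ratio of 1.64 (1.58 to 1.70). The pair with 98.4% upstream identity thus stood far apart in Flox and much closer in the library labelled HKO. *Cyp2a22* (chr7:26931631-26939384) was at 41.7 and 107 CPM, 2.57-fold higher (2.42 to 2.72).

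The 3 Cyp2b genes were low in Flox and higher in the other library. *Cyp2b9* (chr7:26173411-26210661), a steroid-metabolizing enzyme, had 227 UMIs (4.96 CPM, 4.34 to 5.65) in Flox but 1931 UMIs (73.0 CPM, 69.8 to 76.3) in the library labelled HKO, a ratio of 14.7 (12.8 to 17.0). *Cyp2b13* (chr7:26061497-26096197) had 30 and 201 UMIs, or 0.656 and 7.60 CPM, a ratio of 11.6 (7.87 to 17.6). *Cyp2b10* (chr7:25897620-25926624), the usual CAR reporter, was hardly detected, with 2 UMIs in Flox and 34 in the library labelled HKO. At 0.0437 and 1.28 CPM its ratio was 29.4 (7.53 to 252.5), and it stayed under the minimum of 200 UMIs. The intervals of the *Cyp2b9* and *Cyp2b13* ratios overlap, so counting error does not separate these near copies by ratio.

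**Figure D1:**
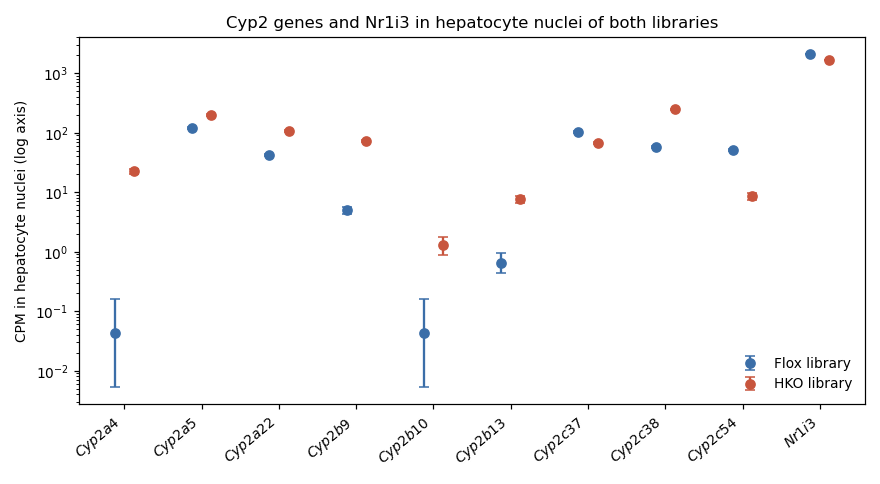
CPM (log axis) of the 9 Cyp2 genes and *Nr1i3* in hepatocyte nuclei, 1 point per library with its exact 95% Poisson interval (counting error only). *Cyp2a4* and *Cyp2b10* had 2 UMIs each in Flox, and *Cyp2c37*, *Cyp2c54* and *Nr1i3* are the genes with the lower point in the library labelled HKO.

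The 3 Cyp2c genes, enzymes that oxidize arachidonic or linoleic acid, went in different directions. *Cyp2c38* (chr19:39389556-39463075) was at 56.7 CPM in Flox and 248 CPM in the library labelled HKO, 4.37-fold higher (4.18 to 4.58). *Cyp2c54* (chr19:40037940-40073827) stood at 50.9 and then 8.50 CPM, which is 5.99-fold lower (ratio 0.167, 0.145 to 0.192). *Cyp2c37* (chr19:39992424-40012243) stood at 104 and then 67.7 CPM, with a ratio of 0.653 (0.618 to 0.690). The neighbours *Cyp2c37* and *Cyp2c54* were thus both lower, while *Cyp2c38* was higher.

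*Nr1i3* itself was at 2103 CPM (2090 to 2117) in Flox and 1683 CPM (1668 to 1699) in the library labelled HKO, a ratio of 0.80 (0.791 to 0.810). The lower value of *Nr1i3* and that of *Cyp2c37* were not shared by all nuclei of that library, as the clusters below show. *Tomm40l*, the mitochondrial import gene that overlaps it, was at 680 and 291 CPM, a ratio of 0.428, so the gene on the other strand moved further than *Nr1i3* did. Its part in the *Nr1i3* count was not tested.

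Among the 15 other rows of the Cyp2a, Cyp2b and Cyp2c subfamilies, 4 had no UMI in either library and 7 had at least 200. *Cyp2c68* was 4.05-fold higher (14.8 and 59.97 CPM), *Cyp2c50* 3.11-fold lower (193 and 62.2 CPM) and *Cyp2c23* 2.43-fold lower (50.2 and 20.7 CPM). The remaining 4, among them the CAR-responsive *Cyp2c29* (183 and 110 CPM, ratio 0.603), differed by less than 2-fold. The subfamilies therefore held genes of both directions beyond those described above.

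Genes that act with CAR differed little. Of 12 partners and regulators, none was 2-fold higher and only *Egfr*, whose signal keeps CAR inactive, was 2-fold lower (355 and 92.0 CPM, ratio 0.259). The next lowest were *Rxrb* (ratio 0.863) and *Ncoa1* (0.879), and the highest were *Ppargc1a* (1.88), *Hsp90aa1* (1.41) and the related receptor gene *Nr1i2* (1.2). The median log2 ratio of the partners was 0.11.

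Other known CAR and PXR target genes were mixed as well. Of 17 with enough UMIs, 3 were at least 2-fold higher: the transporter gene *Slco1a4* (53.5 and 301 CPM, ratio 5.62), *Gstm3* (4.62) and *Gsta2* (2.61). *Gstm1* lay just under 2-fold (ratio 1.996). The minimum left out 4 of the 21 listed genes, among them *Abcc4* (20 and 146 UMIs). *Cyp1a2* was lower (63.9 and 31.8 CPM, ratio 0.497), followed by *Ugt1a1* (0.594) and *Cyp2c29* (0.603). *Cyp3a11*, a main PXR target, was at 336 and 357 CPM, and *Por*, the reductase that serves all these P450 enzymes, at 260 and 296 CPM. The median log2 ratio of the 17 was 0.27.

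Among genes with a sex difference in the mouse liver, those with enough UMIs mostly differed in 1 direction per list. Both lists were chosen with earlier results of these data known, so their counts are a description only. Of the female-predominant genes outside the group described here, 5 had enough UMIs and 4 were at least 2-fold higher, against 2.36% of all genes. These were *Fmo2* (9.84 and 92.5 CPM, ratio 9.41), *Nipal1* (7.21), *Abcd2* (4.15) and *Cyp17a1* (4.08). *Acot3* had a ratio of 1.69, and the other 14 of the 19 listed genes were under the minimum, 5 of them with no UMI in either library. The minimum counts UMIs of both libraries, so a gene can pass it through the library where it is high. The 4 of 5 therefore says nothing about the list as a whole. Of 15 male-predominant genes, 13 were at least 2-fold lower, against 2.62% of all genes, and none was higher. By log2 ratio the lowest were *Mup7* (218 and 2.08 CPM, ratio 0.00955), *Serpina1e* (ratio 0.0225) and *Selenbp2* (ratio 0.0518). *Hsd3b5*, with 603 and 2 UMIs, had a still smaller plain ratio of 0.00573. The ratios nearest to 1 were those of *Mup20* (0.694), *Cyp2u1* (0.565) and *Elovl3* (0.415). *Cyp2a4*, *Cyp2b9* and *Cyp2b13*, the female-predominant genes of the P450 group, had ratios in the same direction. Over the 5 female-predominant and 15 male-predominant genes with enough UMIs, the median log2 ratios were 1.90 and -1.77. The first likewise says nothing about the other 14 listed genes.

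The share of nuclei with a UMI gave the same order once each nucleus was thinned to 3000 UMIs. *Cyp2a4* was found in 1 of 5648 nuclei of Flox (0.0177%) and in 207 of 3955 (5.23%, 4.56 to 5.97) of the library labelled HKO. *Cyp2b9* was found in 0.992% (0.750 to 1.29) and 18.4% (17.2 to 19.7), *Cyp2c38* in 12.9% and 36.9%, and *Cyp2a22* in 10.52% and 22.5%. These genes were therefore found in more nuclei of that library. A nucleus with a *Cyp2b9* UMI held 1.2 of them on average in Flox and 1.28 in the other library after thinning. *Cyp2c54* went from 12.3% to 2.58%, and *Nr1i3* from 89.5% to 84.4%. *Cyp2b10* was found in 1 and 13 nuclei (0.0177% and 0.329%). Without thinning, *Cyp2a4* was in 0.0354% and 8.34% and *Cyp2b9* in 2.32% and 29.2% of nuclei.

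Free RNA in the droplets gives UMIs to nuclei that do not make a gene, and endothelial nuclei, which lack these enzymes, show its level. At 1000 UMIs per nucleus, *Cyp2a4* was found in 1.76% of hepatocyte and 0.372% (2 of 537) of endothelial nuclei of the library labelled HKO. *Cyp2b9* was in 7.25% and 0.186%. For *Cyp2c54* the shares were 0.536% (0.343 to 0.796) and 0.372% (0.0451 to 1.34), so at this depth its share in that library cannot be told from free RNA. In Flox the same gene was in 4.82% and 0.453%. Over all UMIs of the library labelled HKO, *Cyp2c54* was at 8.60 CPM (7.54 to 9.77) in all hepatocyte nuclei. In endothelial nuclei it was at 1.56 CPM (0.189 to 5.65, from 2 UMIs), an interval apart from that of hepatocytes. *Cyp2b10* was in 2 of 4481 hepatocyte nuclei (0.0446%) and 0 of 537 endothelial ones, which allows a share of up to 0.559% (3 counts of the total), so its share is likewise not above that limit. Before thinning, the endothelial nuclei held medians of 1313 and 948 UMIs, against 7445 and 5789 in all hepatocyte nuclei.

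Levels in the other cell types were low and rest on few UMIs. *Nr1i3* stood at 31.2 to 73.1 CPM in the 6 other cell types, which is 1.48% to 4.04% of its hepatocyte level in the same library. *Cyp2a5* reached 97.4 CPM in B cells of Flox, from 8 UMIs, and 3.99 to 47.0 CPM in the other types. *Cyp2a4* had no UMI in any other cell type of Flox and at most 7 UMIs per type in the library labelled HKO, at up to 13.5 CPM.

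Position in the lobule was read from a zone index, the mean of 12 pericentral markers minus that of 13 periportal ones, none of them among the 10 genes. Within each library the nuclei were cut into 3 ranges of equal size, named zone 1 (periportal), middle and zone 3 (pericentral), with 1882 or 1883 nuclei each in Flox and 1318 or 1319 in the library labelled HKO. The ranges are stretches of a score and not cell types, and 6.52% to 8.09% of nuclei lay within 0.1 SD of a cut.

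In Flox, all 8 genes with enough UMIs and more than 3 UMIs in the outer ranges were at least 2-fold higher in zone 3 than in zone 1, against 4.20% of all genes. For the library labelled HKO the count was 8 of 9, against 3.58% of all genes, and *Cyp2a4* was the exception. *Cyp2c38* was at 0.777, 17.6 and 158 CPM from zone 1 over middle to zone 3 in Flox. The library labelled HKO had 27.3, 202 and 544 CPM over the same ranges. *Cyp2c38* was thus higher in every range of that library, by 35.1-fold in zone 1 (19.3 to 71.3) and 3.44-fold in zone 3 (3.27 to 3.62).

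*Cyp2b9* was at 0.706, 1.16 and 13.7 CPM in Flox and at 34.7, 59.6 and 130 CPM in the library labelled HKO. *Cyp2b13* was found mostly in zone 3 of both, with all 30 UMIs of Flox there and 4, 21 and 176 UMIs from zone 1 to zone 3 of the other library. The near copies thus differed in their reach. Within the library labelled HKO the zone 3 to zone 1 ratio was 3.76 (3.32 to 4.27) for *Cyp2b9* and 49.2 (18.9 to 183) for *Cyp2b13*.

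*Cyp2a5* and *Cyp2a22* rose toward zone 3 in both libraries and stood higher in each range of the library labelled HKO. *Cyp2a5* was at 9.11, 73.5 and 286 CPM in Flox and at 70.5, 164 and 376 CPM in the other. *Cyp2a22* was at 11.2, 36.0 and 78.6 CPM and at 48.5, 104 and 176 CPM. The ratio between libraries was largest in zone 1 for both, 7.74 (6.40 to 9.42) for *Cyp2a5* and 4.32 (3.60 to 5.21) for *Cyp2a22*. In zone 1 of Flox *Cyp2a5* was below the 31.5 CPM of endothelial nuclei, whereas the 70.5 CPM of the other library exceeded the 21.9 CPM found there. Endothelial nuclei held fewer UMIs each, so CPM cannot settle how much of the zone 1 level in Flox is free RNA.

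*Cyp2a4* did not follow its neighbour. Among nuclei of the library labelled HKO its level was 27.0 CPM in zone 1, 28.9 CPM in the middle and 10.2 CPM in zone 3, where *Cyp2a5* was highest. Its zone 3 to zone 1 ratio was 0.377 (0.291 to 0.485), against 5.34 (4.90 to 5.82) for *Cyp2a5*. *Cyp2b10* leaned the same way with few UMIs, 18 in zone 1, 10 in the middle and 6 in zone 3.

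**Figure D2:**
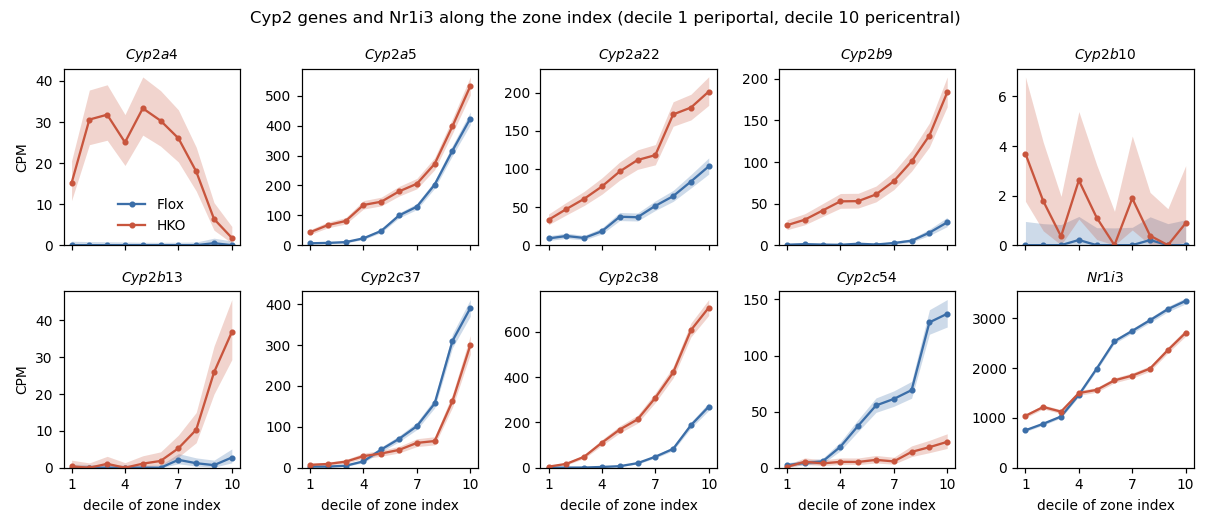
CPM of each gene in deciles of the zone index, from periportal (1) to pericentral (10), as 1 line per library with exact 95% Poisson bands (counting error only). Each panel has its own CPM axis from 0. *Cyp2a4* peaks away from the pericentral end in the library labelled HKO, *Cyp2b13* is highest in the last deciles, and the *Nr1i3* lines cross.

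*Cyp2c37*, *Cyp2c54* and *Nr1i3* were lower in the library labelled HKO at the pericentral end. *Cyp2c37* was at 4.03, 57.7 and 256 CPM in Flox and 11.6, 40.0 and 161 CPM in the other library, a ratio of 2.88 in zone 1 (2.07 to 4.04) and 1.60-fold lower in zone 3. Its zone 1 level in Flox was below the 7.19 CPM of endothelial nuclei. That of the other library (9.50 to 14.0) overlaps the 7.82 CPM found there (3.75 to 14.4). Endothelial nuclei held fewer UMIs each, so CPM cannot settle how much of the zone 1 levels is free RNA. In UMIs, zone 1 of Flox held 57 and its 777 endothelial nuclei 8. Zone 1 of the library labelled HKO held 107 and its 1255 endothelial nuclei 10. *Cyp2c54* was at 4.95, 43.9 and 104 CPM and at 3.36, 6.02 and 17.0 CPM, with a zone 1 ratio whose interval includes 1 (0.430 to 1.05). *Nr1i3* was at 938, 2219 and 3110 CPM and at 1151, 1658 and 2307 CPM, 1.23-fold higher in zone 1 (1.2 to 1.26) and 1.35-fold lower in zone 3. Zone gradients were smaller in the library labelled HKO for the 7 genes that were pericentral in Flox with a zone 1 UMI in both libraries, but so they were for 84.6% of 462 such genes and for 8 of the 12 pericentral markers. *Cyp2b13*, with no zone 1 UMI in Flox, could not be compared.

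Clustered on its own, with the 10 genes left out of the genes used for clustering, the library labelled HKO split its hepatocyte nuclei into a larger cluster of 2556 nuclei and a smaller one of 1407, with similar depth (medians of 6127.5 and 6239 UMIs). Both spanned the lobule, with 29.6% and 40.1% of their nuclei in zone 1 and 34.6% and 30.96% in zone 3. *Themis* was at 259 and 236 CPM, and the 4 Y-linked genes differed by at most 1.17-fold. Of the 9 genes with enough UMIs, 4 were at least 2-fold higher in the smaller cluster, against 1.32% of 9389 genes, and *Cyp2a4* was at least 2-fold lower, against 2.77%. Such clusters are defined by the same nuclei, so the differences are a description, and whether they follow animals of the pool cannot be told.

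*Nr1i3* was at 1185 CPM in the larger cluster and 2560 CPM in the smaller, 2.16-fold higher (2.12 to 2.20), and Flox at 2103 CPM lay between them. *Tomm40l* followed at 206 and 440 CPM, 2.13-fold higher. *Cyp2b10* had 2 UMIs in the larger and 32 in the smaller cluster, at 0.118 and 3.34 CPM (ratio 28.3, 7.21 to 243). Thus 94.1% of its UMIs came from the cluster with the higher *Nr1i3* CPM. The receptor gene and its reporter target were thus high in the same cluster.

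*Cyp2c37* and *Cyp2c54*, lower in the library as a whole, had most of their UMIs in the smaller cluster too. *Cyp2c37* was at 22.8 CPM in the larger and 146 CPM in the smaller cluster, 6.43-fold higher (5.74 to 7.22), and the smaller cluster exceeded the 104 CPM of Flox. *Cyp2c54* was at 3.54 and 17.2 CPM, 4.86-fold higher (3.60 to 6.64), both below the 50.9 CPM of Flox. *Cyp2b13* was at 4.19 and 13.6 CPM, 3.24-fold higher (2.40 to 4.38).

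Other genes of the group separated less. *Cyp2b9* was at 58.4 and 98.4 CPM (ratio 1.68), *Cyp2c38* at 206 and 320 CPM (1.55), *Cyp2a5* at 186 and 215 CPM (1.15) and *Cyp2a22* at 104 and 113 CPM (1.09). Each stood above its Flox level in both clusters. *Cyp2a4* ran the other way, at 29.5 CPM in the larger and 10.0 CPM in the smaller cluster, 2.95-fold lower (2.37 to 3.71), with 83.9% of its UMIs in the larger cluster.

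**Figure D3:**
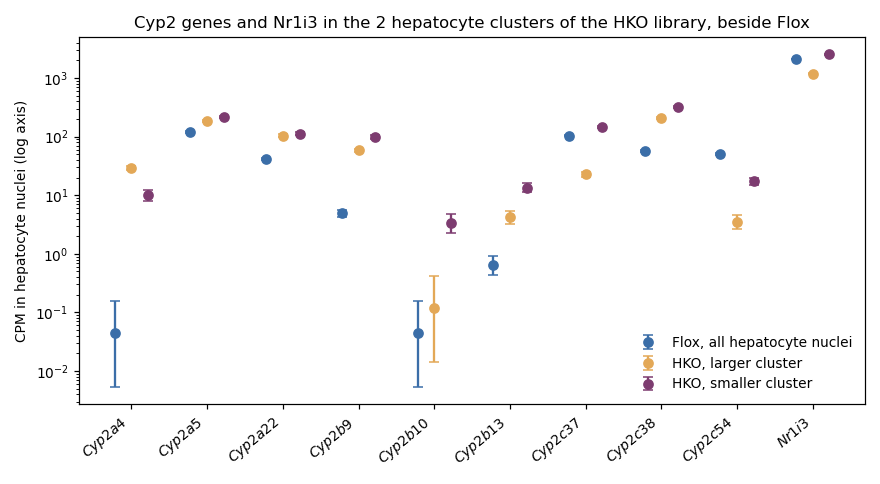
CPM (log axis) in all hepatocyte nuclei of Flox and in the larger and the smaller hepatocyte cluster of the library labelled HKO, with exact 95% Poisson intervals (counting error only). *Nr1i3* and *Cyp2c37* of Flox lie between the 2 clusters, and *Cyp2a4* is the gene that is lower in the smaller cluster.

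For *Nr1i3*, *Cyp2c37* and *Cyp2a4* the cluster difference was seen in each zone range. *Nr1i3* was at 654, 1088 and 1768 CPM from zone 1 to zone 3 of the larger cluster and at 1769, 2935 and 3506 CPM in the smaller. *Cyp2c37* was at 4.33, 9.85 and 53.5 CPM and at 20.6, 107 and 397 CPM. *Cyp2a4* was at 41.1, 35.0 and 12.7 CPM and at 9.45, 14.8 and 3.89 CPM, so it was lower toward zone 3 within the larger cluster and lower in the smaller cluster in every range. Markers of zone 1 moved with the clusters, since 4 of 12 (*Sds*, *Etnppl*, *Ass1* and *Cps1*) were 2.81-fold to 3.94-fold higher in the smaller one, and their part in the split was not tested.

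Flox split differently. Its hepatocyte nuclei fell into 4 clusters along the lobule, of which the 2 pericentral ones (1797 and 1446 nuclei, with 53.7% and 62.7% in zone 3) differed in P450 genes while *Nr1i3* was at 2920 and 2736 CPM. *Cyp2c37* was at 225 and 106 CPM there, *Cyp2c38* at 124 and 58.1 CPM and *Cyp2c54* at 103 and 54.2 CPM. *Cyp2b9* ran the other way at 5.27 and 10.8 CPM, as did *Cyp2a22* at 51.8 and 74.4 CPM. The 3 Cyp2c genes were thus higher in 1 of these clusters, where *Nr1i3* differed little.

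Among genes of the CAR lists, *Fmo5* (1438 and 4170 CPM, ratio 2.90) and *Cyp2c29* (74.5 and 172 CPM, ratio 2.30) were at least 2-fold higher in the smaller cluster, 2 of 15 targets. *Por* (1.93), *Cyp3a11* (1.88) and *Slco1a4* (1.86) were close to 2-fold. None of 12 CAR partners passed 2-fold, with *Ahr* (1.95) and *Hsp90aa1* (1.68) highest. The female-predominant and male-predominant lists did not divide along the clusters as they did between libraries, with 0 of 5 and 1 of 12 at least 2-fold higher and 1 of each lower. *Abcd2*, at 31.7 and 10.6 CPM (ratio 0.336), was the female-predominant gene that was low with *Cyp2a4*.

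Whether the genes occur in the same nuclei was asked by counting nuclei with UMIs of both genes of a pair, after thinning to 3000 UMIs, and dividing by the number that the 2 shares give within deciles of the zone index. A ratio of 1 is what independent detection within a decile gives. *Nr1i3* was found in 89.5% (Flox) and 84.4% (library labelled HKO) of nuclei at this depth, so ratios of its pairs have little room above 1. In Flox, 24 of 45 pairs had an expectation of at least 5 nuclei, the median ratio was 1.01, and 4 pairs reached 1.2, against 10.2% of all gene pairs. In the library labelled HKO, 34 pairs had enough, the median was 1.08, and 11 pairs reached 1.2, against 12.0% of all pairs, whose median ratio was 1.0 in both libraries. Reaching 1.2 takes no account of counting error, and several of these pairs have intervals that include 1. Examples are *Cyp2a22* and *Cyp2b9* in Flox (0.817 to 2.41) and *Cyp2a4* and *Cyp2b9* in the library labelled HKO (0.885 to 1.73).

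The highest ratio in the library labelled HKO was that of the neighbours *Cyp2c37* and *Cyp2c54*, found together in 42 nuclei where 21.7 were expected (1.94, 1.39 to 2.62). In Flox the same pair was found together in 319 nuclei against 240 expected (1.33, 1.19 to 1.49). *Cyp2b9* and *Cyp2b13* occurred together in 43 nuclei against 26.6 (1.62, 1.17 to 2.18). *Cyp2b9* was also found with *Cyp2c37* (1.32, 1.14 to 1.53) and with *Cyp2c38* (1.22, 1.12 to 1.34) more often than the product of shares gives. *Cyp2c37* and *Cyp2c54* share 5.38% of windows, and the part of ambiguous reads in their ratio was not tested, while *Cyp2b9* shares no window with *Cyp2b13*.

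*Cyp2a4* behaved differently from pair to pair. It was found with *Cyp2a5* in 68 nuclei against 51.1 expected (1.33, 1.03 to 1.69), a pair that shares windows and whose ratio was not tested for ambiguous reads. It was found with *Cyp2c37* in 8 against 14.1 (0.566, 0.244 to 1.11) and with *Nr1i3* at a ratio of 0.882. With the 2 clusters as further strata, the pair of *Cyp2a4* and *Cyp2a5* stood at 1.46 and that of *Cyp2b9* and *Cyp2b13* at 1.44. *Cyp2c37* and *Cyp2c54* came down to 1.22, and pairs at or above 1.2 went from 11 to 5 of 36, so fewer pairs stood out once nuclei were compared inside a cluster.

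**Figure D4:**
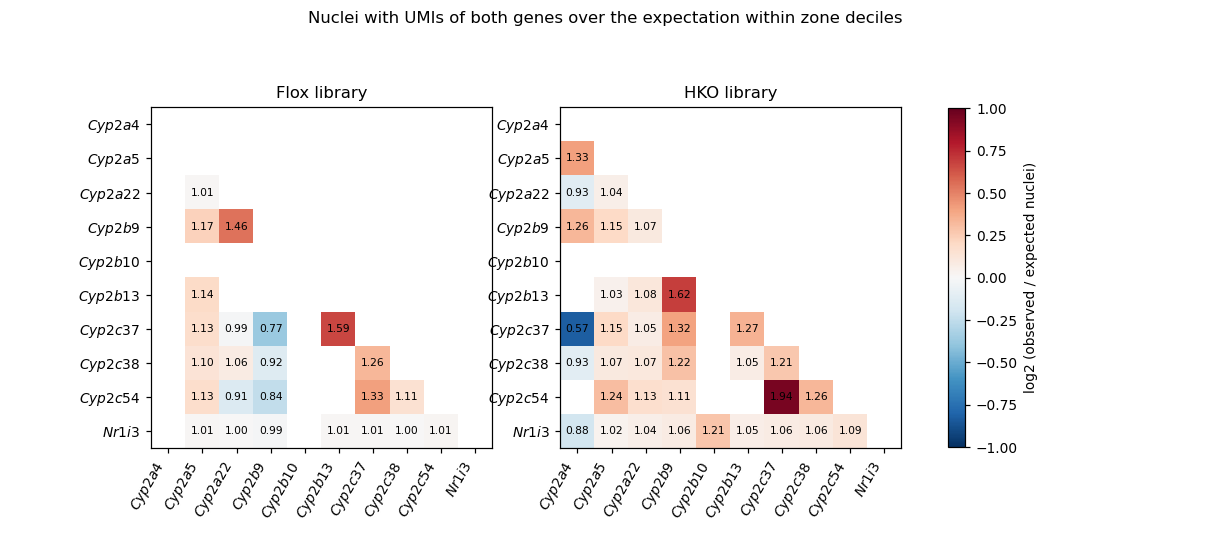
Nuclei with UMIs of both genes divided by the number expected within deciles of the zone index, per pair and library, printed in each square and coloured on a log2 scale. White squares below the diagonal are pairs with fewer than 5 expected nuclei, and each pair is drawn once. The library labelled HKO has more squares above 1.2 than Flox, and its pair of *Cyp2a4* and *Cyp2c37* lies lowest.

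*Nr1i3* was frequent enough to split nuclei directly. Within each decile, nuclei above the median number of *Nr1i3* UMIs were set against the rest (2539 and 3109 nuclei in Flox, 1793 and 2162 in the library labelled HKO). In Flox, 4 of 5 P450 genes with enough UMIs were at least 1.2 times higher where *Nr1i3* was high, against 4.05% of all genes. In the library labelled HKO, 4 of 6 were, against 9.21% of all genes. The genes share nuclei, libraries and depth, so this describes these nuclei and no more.

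In Flox the ratio between nuclei with more and with less *Nr1i3* was 1.49 (1.31 to 1.70) for *Cyp2c54*, 1.44 (1.32 to 1.57) for *Cyp2a5*, 1.25 for *Cyp2c37* and 1.24 for *Cyp2c38*. The 4 genes of the library labelled HKO were *Cyp2c37* at 2.77 (2.39 to 3.21), *Cyp2b9* at 1.54, *Cyp2c38* at 1.51 and *Cyp2a22* at 1.24. *Cyp2c54*, with too few UMIs to be among the 6, was at 4.03 (2.58 to 6.52). *Cyp2b10*, also under the minimum, had 12 UMIs in nuclei with more *Nr1i3* and 1 in the rest (14.5, 2.14 to 619). *Cyp2a4* was the one P450 gene that was lower where *Nr1i3* was high, at 15.4 and 31.8 CPM (0.486, 0.372 to 0.630).

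Split again inside each cluster, most of these ratios were smaller. *Cyp2c37* was at 1.33 (0.988 to 1.79) in the larger and 1.28 (1.10 to 1.49) in the smaller cluster, and *Cyp2c54* at 2.39 (1.06 to 5.76) and 1.12 (0.714 to 1.76). *Cyp2b10* had 7 UMIs with more and 5 with less *Nr1i3* in the smaller cluster, a ratio of 1.65 whose interval includes 1 (0.450 to 6.58). *Cyp2a4* remained lower with more *Nr1i3* in the larger cluster, at 0.585 (0.441 to 0.770), while its ratio of 0.589 in the smaller one has an interval that includes 1 (0.278 to 1.19).

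Over the 20 points given by 10 deciles in each of 2 libraries, the genes most like each member in log2(CPM + 1) were named by Pearson's r. The points share library and depth, and genes with a like trend along the zone index have a high r. *Cyp2a22* and *Cyp2c38* tracked each other (r = 0.98), and *Cyp2c37* tracked *Nr1i3* (r = 0.97). In nuclei within deciles, the first pair was found together at 1.06 (Flox) and 1.07 (library labelled HKO) times the expectation. The second pair stood at 1.01 and 1.06, but *Nr1i3* was found in most nuclei, so this ratio could not rise far above 1. Near to *Nr1i3* were *Cyp27a1* (r = 0.99) and *Clstn3* (r = 0.98). Those nearest to *Cyp2a4* were *Ugdh*, *Cfap44* and *Ccdc120* (each r = 0.96), and those nearest to *Cyp2b9* were *Ammecr1l*, *Robo1* (both r = 0.98) and *Gm43260* (r = 0.97). *Cyp2a5* lay nearest to *Snhg11*, *Slco1b2* and *Cyp2c67*, *Cyp2a22* to *Dmxl2*, *Hmgcs1* and *Cyp2c38*, and *Cyp2c38* to *H2-Q1*, *Dmxl2* and *Cyp2a22* (r = 0.98 to 0.99). *Cyp2c37* lay nearest to *Tsc22d1*, *Npr2* and *Gm36419* (r = 0.98 to 0.99) and *Cyp2c54* to *Abcg2*, *Cyb5a* and *Ang* (r = 0.96 to 0.97). For the sparse *Cyp2b13* they were *Adamtsl4*, *Ihh* and *Pdk1* (r = 0.92 to 0.95), and for *Cyp2b10* *Flvcr2*, *Wbp1l* and *Mknk2* (r = 0.82 to 0.84).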

How the data were processed

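Nuclei from livers of several mice pooled per genotype were sorted and sequenced with 10x 3′ chemistry, and the authors made the deposited raw UMI count matrices by aligning to GRCm38 (mm10) in Cell Ranger 8.0.1, introns left out. From these counts, nuclei with at least 300 genes were kept, doublets were removed (701 in Flox, 920 in the library labelled HKO), and nuclei were clustered with Seurat 5.3.0 in R 4.3.3 and named from marker lists. The reference used to name hepatocyte clusters was chosen once the clusters had been seen. Hepatocyte nuclei with at least 3000 UMIs were summed per library to CPM. The 10 genes and all lists were chosen with earlier results of these data known.

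With 1 library per genotype no test was run. Intervals are exact (Poisson for CPM, conditional binomial for ratios, Clopper-Pearson for shares, each at 95%) and cover counting error only. A gene counted as higher or lower at a 2-fold ratio of CPM with at least 200 UMIs over both libraries, and log2 ratios carry a pseudocount of 1 CPM. The named genes were the 10 genes, other Cyp2a, Cyp2b and Cyp2c genes at least 2-fold different, the 3 highest and 3 lowest of each list by log2 ratio, and the 3 genes most alike to each in log2(CPM + 1). A gene among the most alike is not reported here. *Hsd3b5*, *Gstm1*, *Abcc4*, *Cyp3a11*, *Por* and the list genes named for the clusters were chosen after their values were seen. The calculations were checked on simulated data and run with numpy 2.4.6, scipy 1.17.1, pandas 2.3.3 and scanpy 1.11.5. Alternatives covered scaling, thinning, the minimum of UMIs, doublets, the zone index and the clusters. Promoter sequences are RefSeq's on GRCm38.p6.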

Additional observations from a re-analysis of the deposited data

Results flagged for a closer look

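For *Cyp2c37* and *Nr1i3* the ratio between libraries pointed opposite ways at the ends of the lobule. The ratio of the library labelled HKO to Flox was 2.88 in zone 1 and 0.626 in zone 3 for *Cyp2c37*, and 1.23 in zone 1 and 0.742 in zone 3 for *Nr1i3*. Endothelial nuclei held *Cyp2c37* at 7.19 CPM in Flox and 7.82 CPM in the other library. Those nuclei had fewer UMIs each, so CPM cannot settle how much of the zone 1 levels of *Cyp2c37* is free RNA. The same genes also pointed opposite ways in the 2 hepatocyte clusters of that library. Against Flox, *Cyp2c37* had a ratio of 0.22 in the larger and 1.41 in the smaller cluster, and *Nr1i3* had 0.563 and 1.22. In the larger cluster *Nr1i3* was below Flox in each zone range (654, 1088 and 1768 against 938, 2219 and 3110 CPM). In the smaller it was above Flox in each (1769, 2935 and 3506 CPM). Zone 1 *Cyp2c37* was at 4.33 CPM in the larger and 20.6 CPM in the smaller cluster, against 4.03 CPM in Flox. How far the zone result reflects the mix of clusters was not tested. These differences were not tested, since there is 1 library per genotype.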

How the results depend on the processing

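No paired analysis was possible because there is 1 library per genotype and no test was run. Of 71 recomputed counts, 62 stayed within 1.5 times the reported count and 9 moved. Single values moved more often, meaning that they left the counting interval of the reported value. This held for 27 of 120 log2 ratios between libraries, 44 of 140 between zone 3 and zone 1, and 60 of 100 shares. The settings for shares included other depths. Without the smaller cluster of the library labelled HKO, 2 genes were at least 2-fold lower in CPM and 2 in share of nuclei, the second in CPM being *Cyp2c37* (log2 ratio -2.14). Without the larger cluster *Cyp2c37* had a log2 ratio of 0.51 and *Nr1i3* one of 0.29, against -0.61 and -0.32 with both, so the direction of these 2 genes turned. Both of these settings, and the clusters as further strata, were chosen after seeing the data. With no minimum of UMIs per gene, 11.8% of all genes were at least 2-fold higher and 13.8% lower. Gene pairs at or above 1.2 numbered 15 in Flox and 20 in the library labelled HKO without zone strata, and in the latter 5 at 1000 UMIs per nucleus and 5 with clusters as further strata. Under scaling by the median ratio (0.987 between libraries, also added later for the lists), 0 CAR and PXR targets were at least 2-fold lower. Under the other 10 settings of scaling, thinning, nucleus filters, pseudocount, doublets and clustering no log2 ratio of the 10 genes between libraries changed sign. Low counts limit *Cyp2b10* and, in Flox, *Cyp2a4* and *Cyp2b13*.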
